A study of Mus musculus with 2 samples.

Results

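The genes examined here set the entry of glucose carbon into glycolysis and then into the mitochondria. They are 10 genes fixed by name: the PFKFB enzymes Pfkfb3 and Pfkfb4, the pyruvate dehydrogenase kinases Pdk1, Pdk2, Pdk3 and Pdk4, the pyruvate dehydrogenase (PDH) subunits Pdha1, Pdhb and Dlat, and the PDH phosphatase Pdp1. All 10 were found among the 20330 gene identifiers of the deposited table. Values are in FPKM, the fragments of a gene divided by transcript length and by the mapped total of its library, so that levels of different genes can be compared per length.

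The cells were adipose tissue macrophages (ATM), sorted with antibodies to F4/80 and CD11b out of visceral fat of C57BL/6 mice after 12 wk of high-fat diet. The WT group was hMRP8cre-;Hif-1αfl/fl;ApoE-/- and the KO group was hMRP8cre+;Hif-1αfl/fl;ApoE-/-, so by the labels both were ApoE-/- and both carried the floxed Hif-1α alleles. In the KO group Cre is driven by the human MRP8 promoter, which is active in the myeloid lineage, including progenitors, monocytes and neutrophils, so Cre is not limited to macrophages. Per the methods, the diet was started at 4 wk of age. There was 1 library per genotype, and the number and sex of the mice behind each were not given in the sources used here.

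PFKFB enzymes make and break down fructose 2,6-bisphosphate, the small molecule that activates phosphofructokinase (PFK-1), the committing step of glycolysis. Pyruvate, the end product of glycolysis, is turned into acetyl-CoA by the PDH complex in mitochondria. PDH kinases phosphorylate the alpha subunit of the complex and switch it off, and PDH phosphatases switch it on again. HIF-1, the oxygen-regulated transcription factor whose alpha subunit Hif1a encodes, is known to induce glycolytic genes, Pfkfb3, Pfkfb4 and Pdk1 among them, in cells short of oxygen. The comparison of KO with WT therefore addressed how these switches are expressed in ATM when Hif1a is targeted.

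Since HIF-1 binds a short DNA core, ACGTG or GCGTG, the promoters of the 3 members with the widest gap between the libraries among those with a RefSeq promoter entry are shown first. The sequences are from RefSeq on GRCm38.p6 and run 5′ to 3′ on the gene's strand, from 250 bases before the annotated start to 20 bases after it. Capitals mark every ACGTG or GCGTG match, on either strand. Pfkfb3 has a pair of annotated starts in the RefSeq table, printed as chr2:11553910-11554179 and chr2:11502071-11502340, both on the minus strand. The Pdk1 start with core matches is at chr2:71872974-71873243 on the plus strand, and that of Pdhb is at chr14:8172973-8173242 on the minus strand.
Pfkfb3 start 1: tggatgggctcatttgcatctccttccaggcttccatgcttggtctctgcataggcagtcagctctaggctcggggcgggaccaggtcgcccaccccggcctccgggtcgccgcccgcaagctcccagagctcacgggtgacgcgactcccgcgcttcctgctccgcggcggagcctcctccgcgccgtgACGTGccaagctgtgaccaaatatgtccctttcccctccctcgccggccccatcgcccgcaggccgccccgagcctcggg
Pfkfb3 start 2: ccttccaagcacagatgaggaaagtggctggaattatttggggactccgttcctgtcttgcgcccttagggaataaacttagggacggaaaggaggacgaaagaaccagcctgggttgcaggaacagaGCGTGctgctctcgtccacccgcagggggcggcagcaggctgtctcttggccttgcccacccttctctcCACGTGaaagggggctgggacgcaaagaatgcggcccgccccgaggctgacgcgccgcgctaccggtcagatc
Pdk1 start 1: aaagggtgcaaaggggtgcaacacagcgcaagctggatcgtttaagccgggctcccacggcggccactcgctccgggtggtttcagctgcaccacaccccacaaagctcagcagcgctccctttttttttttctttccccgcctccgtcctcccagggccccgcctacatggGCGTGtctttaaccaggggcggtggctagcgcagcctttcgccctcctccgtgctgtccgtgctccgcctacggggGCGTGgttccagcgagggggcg
Pdhb: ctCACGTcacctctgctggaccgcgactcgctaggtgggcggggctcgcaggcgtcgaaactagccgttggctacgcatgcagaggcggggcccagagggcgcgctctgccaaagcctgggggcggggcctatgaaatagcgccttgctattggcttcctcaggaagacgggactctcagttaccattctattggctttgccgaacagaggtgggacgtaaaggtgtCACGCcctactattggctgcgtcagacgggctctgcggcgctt

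A core match lay in 9 of the 12 member windows when counted over 250 bases before and 50 bases after each start, against 43.8% of all 32851 windows of that length in the table. By gene, 8 of the 9 members with a window had a match, against 46.7% of all genes in the table. Dlat had none and Pdp1 had no entry. Pdk1 carried GCGTG at positions -78 to -74 and at -2 to 3 of its first start and no match at its second. Pfkfb3 carried ACGTG at -60 to -56 of its first start. At its second start it carried GCGTG at -122 to -118 and, past the printed stretch, at 38 to 42, and ACGTG read on both strands from a single CACGTG at -53 to -48. Pdhb carried both of its matches on the opposite strand, at -248 to -244 and at -23 to -19. A match is a string of letters and was not tested for binding.

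**Figure D1:**
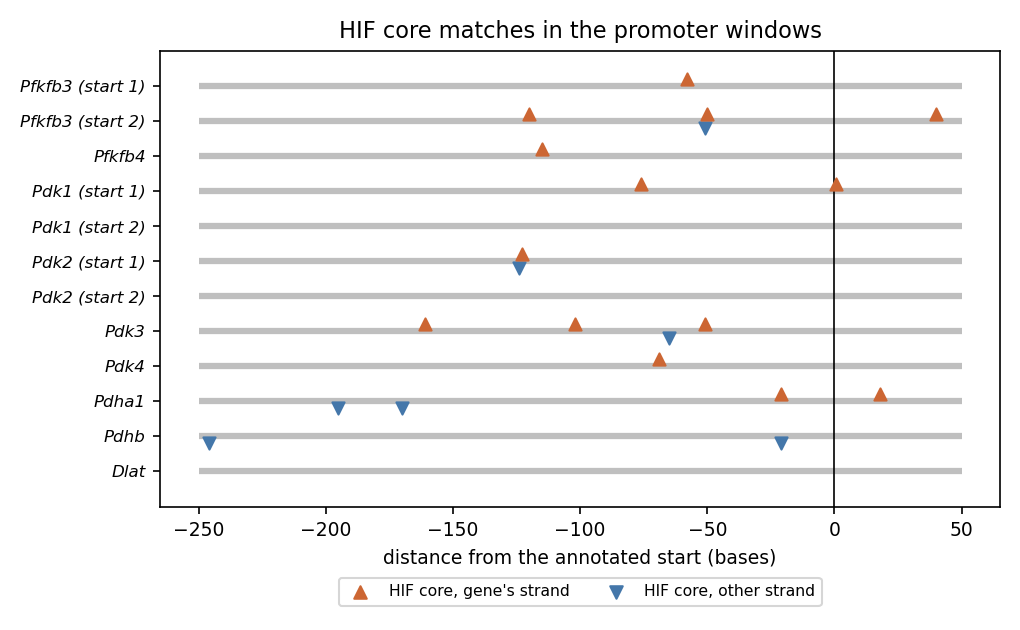
Positions of ACGTG or GCGTG in the RefSeq promoter windows (grey bars) of the 9 members with an entry, as distance from the annotated start in bases, with upward triangles for the gene's strand and downward triangles for the other. Of the 12 windows, 9 hold at least 1 match, and the second start of Pfkfb3, Pdk3 and Pdha1 hold 4 each.

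Before the members were compared, the libraries were checked. Depth, estimated from the lowest FPKM values, was near 5860000 mapped fragments in WT and near 7470000 in KO. Hif1a was at 30.4 FPKM (WT) against 21.0 FPKM (KO), a difference of -0.52 on the log2(FPKM + 1) scale used throughout, KO minus WT. This is a value for the whole gene, so it does not show whether the floxed exon was deleted. Apoe, which the labels give as -/- in both groups, was nevertheless at 94.3 FPKM (WT) against 117 FPKM (KO). These values go against an absence of Apoe transcript, and whether they come from a disrupted allele was not tested. All 8 macrophage markers in the table were present, with summed FPKM of 7246 (WT) and 7350 (KO). Most of each sum was Lyz2 and C1qa, so the sums say little of the other markers. Adgre1, which encodes F4/80, was at 299 and 239 FPKM, and Itgam, which encodes CD11b, was at 128 FPKM in each. Not all of the 8 were level. Past 2-fold, 1 was higher in KO, Mertk with a difference of 1.19, and 1 was lower, Fcgr1 with -1.14. Of 7 neutrophil markers 3 were above 0 in WT and 5 in KO, with summed FPKM of 137 and 491, and Camp and Elane were at 0 in both. Nearly all of each sum was S100a8 and S100a9. Retnlg, Ngp and Mpo were low in KO, at 2.46, 2.61 and 2.29 FPKM, against 0.385, 0 and 0 FPKM in WT. Fibroblast and preadipocyte markers were above 0 in both, 5 of 5, with summed FPKM of 43.2 and 83.9. Most of each sum was Dcn, at 35.0 and 62.3 FPKM. Pdgfra and Col1a2 were barely above 0 in WT, at 0.0246 and 0.0948 FPKM. In KO they were at 4.98 and 4.75 FPKM. Among 7 adipocyte markers Adipoq, Plin1, Retn and Pck1 were at 0 in both libraries, and the summed FPKM was 5.83 in WT and 8.70 in KO. The sums came from different genes. Cidec was at 5.83 FPKM in WT and listed at 0 in KO, whereas Cfd and Lep were listed at 0 in WT, with 7.11 and 1.60 FPKM in KO. All 4 T cell markers were at 0 in both. Summed FPKM of B cell markers was 2.75 and 6.46, of endothelial markers 17.3 and 16.0, of mesothelial markers 0 and 7.84, and of skeletal muscle markers 0 and 0.315. Genes within these lists differed in opposite directions. Cd79a was at 2.50 and 0.222 FPKM and Cd79b at 0 and 5.52 FPKM. Tie1 was at 4.12 and 0 FPKM, whereas Pecam1, Cdh5 and Kdr differed by 0.34, 0.10 and 0.23. The mesothelial sum was Upk3b alone, with Msln and Lrrn4 at 0 in both.

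Each genotype is a single library, so the differences below carry neither an error nor a test. A gene was called past the fold at a 3-fold difference of FPKM + 1. Of the 10 members 0 were higher and 1, Pdk1, which is listed at 0 in KO, was lower past 3-fold, whereas 13.6% of the 10297 genes compared were higher and 13.7% were lower. At 2-fold, 2 members (Pfkfb3 and Pdhb) were higher and 2 (Pdk1 and Pdp1) were lower, beside 23.1% and 22.5% of all genes. The shares of members past either fold were close to or under those of all genes. The median difference of the members was -0.13, against 0.03 over all genes compared. Of the members 3 had a value above 0 and 7 below, Pdk3 and Pdha1 among them at close to 0, beside 51.3% above and 48.7% below over all genes. All 10 members reached 1 FPKM in WT or KO, which was the condition for being compared, and 8 of them reached it in both.

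**Figure D2:**
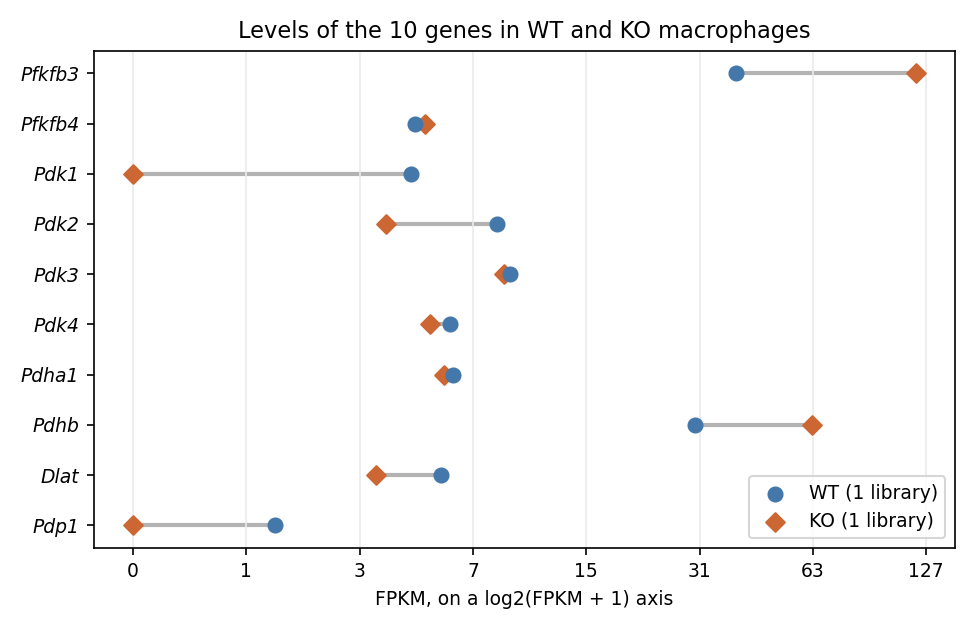
FPKM of each member in the WT library (circles) and the KO library (diamonds), on a log2(FPKM + 1) axis, with 1 library per genotype and no error bars. Pfkfb3 and Pdhb stand to the right in KO, Pdk1 and Pdp1 are listed at 0 in KO, and Pfkfb4, Pdk3, Pdk4 and Pdha1 nearly coincide.

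Pfkfb3 encodes the PFKFB form with the strongest bias toward making the PFK-1 activator and was the highest member in both libraries. It was at 38.9 FPKM (WT) against 119 FPKM (KO), a difference of 1.58. This was 3.05-fold as a ratio of FPKM but 2.997-fold after the pseudocount of 1, which placed it just short of the 3-fold threshold. Of the 667 genes at a mean level of 50 to 100 FPKM, 4.95% were past 3-fold, and the middle 90% of their differences ran from -1.37 to 1.13. The value for Pfkfb3 lay above that range. Its annotated coding transcripts span 1478 to 4801 nt, which corresponds to an estimated 337 to 1095 fragments in WT and 1310 to 4254 in KO.

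Pfkfb4, the form best known from hypoxic and tumour cells, was at 4.60 FPKM (WT) against 4.98 FPKM (KO), a difference of 0.10. Its level rested on an estimated 94 fragments (76 to 115) in WT and, at the greater depth of that library, 130 (109 to 154) in KO, with 95% exact Poisson intervals for counting error only. The Pfkfb3 level was thus 8.47 times that of Pfkfb4 in WT and 23.8 times in KO. With Pfkfb2, the form known from heart, at 1.91 and 0.791 FPKM and Pfkfb1, the liver and muscle form, listed at 0 in both, Pfkfb3 made up 85.7% of the summed PFKFB FPKM in WT and 95.4% in KO. Pfkfb3 was the main PFKFB transcript in both genotypes. The neutrophil markers S100a8, at 73.3 and 182 FPKM, and S100a9, at 63.4 and 301 FPKM, were also higher in KO, as were all 5 fibroblast and preadipocyte markers, and their part in the differences of Pfkfb3 and Pdhb was not tested. In libraries of sorted cells, a change in the mix of cells and a change of RNA per cell cannot be told apart.

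Of the 4 PDH kinases, Pdk1 was past 2-fold lower in KO, Pdk2 was near that fold, and Pdk3 and Pdk4 were close to their WT values. Pdk1, the kinase best known as a HIF-1 target, was at 4.46 FPKM in WT and listed at 0 in KO, and no fold is given for it. The WT level rested on an estimated 136 fragments (95% exact Poisson interval 114 to 161, counting error only) of its 5185-nt transcript, and the same level would have been about 173 fragments at the depth of the KO library. Differences past 3-fold were common at the mean level of Pdk1, in 49.0% of the 1947 genes with a mean of 2 to 5 FPKM. A value of 0 can moreover be a failed estimate. Of the 1469 genes at 3 to 6 FPKM in WT, 16.7% were listed at 0 in KO, and of the 1384 at that level in KO, 19.4% were listed at 0 in WT. Listed zeros were thus not rare at the level of Pdk1 in either direction. These shares do not show how many zeros were failed estimates, and the cause of the KO value of Pdk1 was not tested.

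Pdk2, a widely expressed kinase, was at 8.26 FPKM (WT) against 3.70 FPKM (KO), a difference of -0.98. This was 2.23-fold as a ratio of FPKM but 1.971-fold after the pseudocount of 1, which placed it just under 2-fold. The estimated fragments were 109 (WT) against 62 (KO), and 49.6% of the 1885 genes with a mean of 5 to 10 FPKM were past 2-fold. Pdk3 was at 9.04 FPKM (WT) against 8.69 FPKM (KO), a difference of -0.05. Pdk3 was the highest of the kinases in both libraries, though in WT it differed little from Pdk2. Pdk4, the kinase known to follow fasting and fatty acid supply, was at 5.96 FPKM (WT) against 5.15 FPKM (KO), a difference of -0.18. Taking the longest coding transcript, the estimate for Pdk3 was 112 fragments in WT against 137 in KO, and for Pdk4 122 against 134.

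Added together, the kinases reached 27.7 FPKM (WT) against 17.5 FPKM (KO). Most of that gap was made up by Pdk2 and by the value of 0 for Pdk1. In WT the sum was shared by Pdk3 at 32.6%, Pdk2 at 29.8%, Pdk4 at 21.5% and Pdk1 at 16.1%. In KO Pdk3 held 49.5%, Pdk4 29.4% and Pdk2 21.1%. Pdk3 thus led the kinase transcripts by a small margin in WT and by a wide one in KO, where the shares also rest on the value of 0 for Pdk1.

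**Figure D3:**
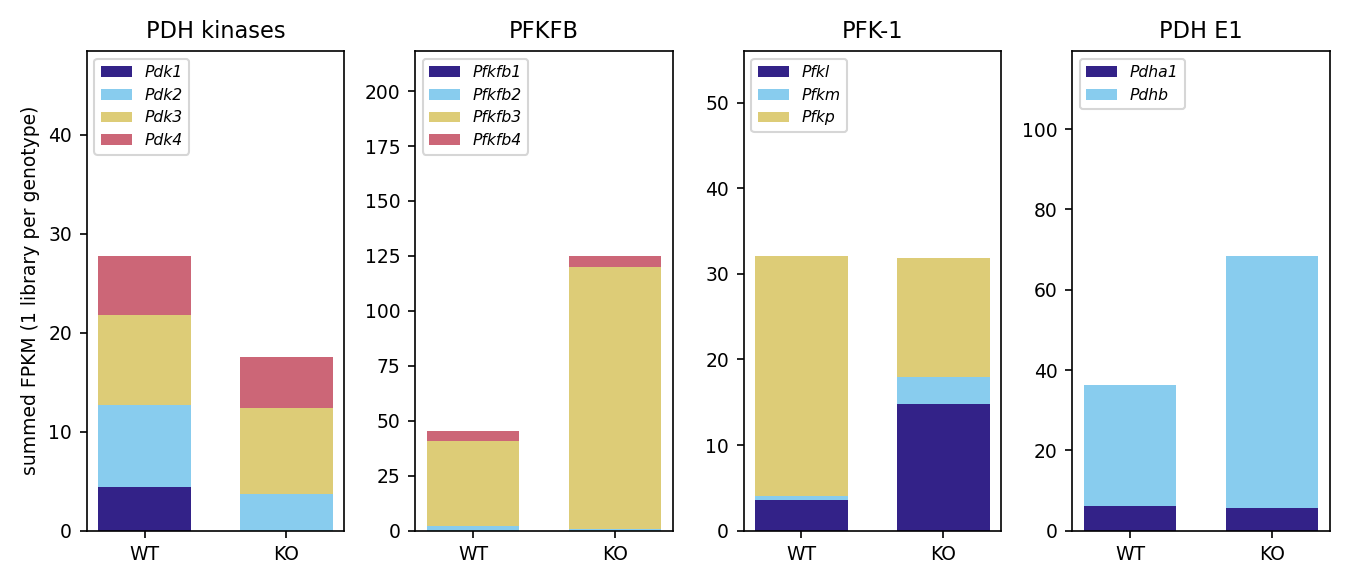
Summed FPKM of the PDH kinases, the PFKFB enzymes, the PFK-1 subunits and the PDH alpha and beta subunits (PDH E1) in the WT and KO libraries, as stacked bars from 0, with a separate scale in each panel. Pfkfb3 fills most of the PFKFB bar in both, the kinase bar is 27.7 in WT and 17.5 in KO, and the PFK-1 bars are of nearly equal height but different make-up.

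Among the subunits, Pdha1, the alpha subunit that the kinases phosphorylate, was at 6.10 FPKM (WT) against 5.71 FPKM (KO), a difference of -0.08. Pdhb, the beta subunit that forms the same tetramer, was at 30.1 FPKM (WT) against 62.6 FPKM (KO), a difference of 1.03 and a ratio of 2.08. Its fragments were estimated at 267 (236 to 301) in WT and 708 (657 to 762) in KO, with 95% exact Poisson intervals for counting error only. Part of that gap is the greater depth of the KO library, at which the WT level would have been about 340 fragments. Genes of that level often differed as much, since 26.8% of the 1711 genes with a mean of 20 to 50 FPKM were past 2-fold. The Pdhb level was 4.93 times that of Pdha1 in WT and 11.0 times in KO, although the proteins assemble in equal numbers. Dlat, the acetyltransferase core of the complex, was at 5.58 FPKM (WT) against 3.42 FPKM (KO), a difference of -0.57, on an estimated 132 and 103 fragments. None of the 3 subunits was past 3-fold.

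The study also carried out PCR assays for Pdk1, Pdk4 and Pdh. The Pdh pair is shown because it settles which subunit was read, and the Pdk1 pair because Pdk1 is the member listed at 0 in KO.
Pdk1 forward: ggacttcgggtcagtgaatgc
Pdk1 reverse: tcctgagaagattgtcgggga
Pdh forward: gtgagaacaaccgctatggcatg
Pdh reverse: cgcaaactttgttgcctctcgg
Both Pdh primers had exact matches in Pdha1 transcripts of GENCODE M21 and in no other gene, at bases 766 to 788 and 887 to 908 of the 2848-nt transcript, which gives a product of 143 nt. An assay with these primers reads Pdha1, the nearly level subunit, and not Pdhb. The Pdk1 primers matched Pdk1 alone, at bases 335 to 355 and 436 to 456 of the 5185-nt transcript, a product of 122 nt near its 5′ end. Of the Pdk4 pair, the reverse primer matched Pdk4 at bases 8 to 28 of its 3484-nt transcript, whereas the forward primer had 0 exact matches, so no product is given.

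Pdp1, the calcium-stimulated phosphatase that removes the phosphate the kinases add, was at 1.38 FPKM in WT and listed at 0 in KO. It was the lowest member, on an estimated 15 to 34 fragments in WT depending on the transcript, and 24.7% of the 685 genes at 1 to 2 FPKM in WT were listed at 0 in KO. Pdp2, the other catalytic form, was at 2.70 FPKM (WT) against 3.98 FPKM (KO). The sum of both phosphatases was 4.09 FPKM (WT) against 3.98 FPKM (KO). The summed kinase level was 6.78 times the summed phosphatase level in WT and 4.41 times in KO. Relative to Pdha1, their substrate, the kinases were at 4.54 in WT and 3.07 in KO. The KO sums count Pdk1 and Pdp1 as 0, which may be failed estimates, so the differences between these ratios cannot be relied on. They say nothing of enzyme activity.

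**Figure D4:**
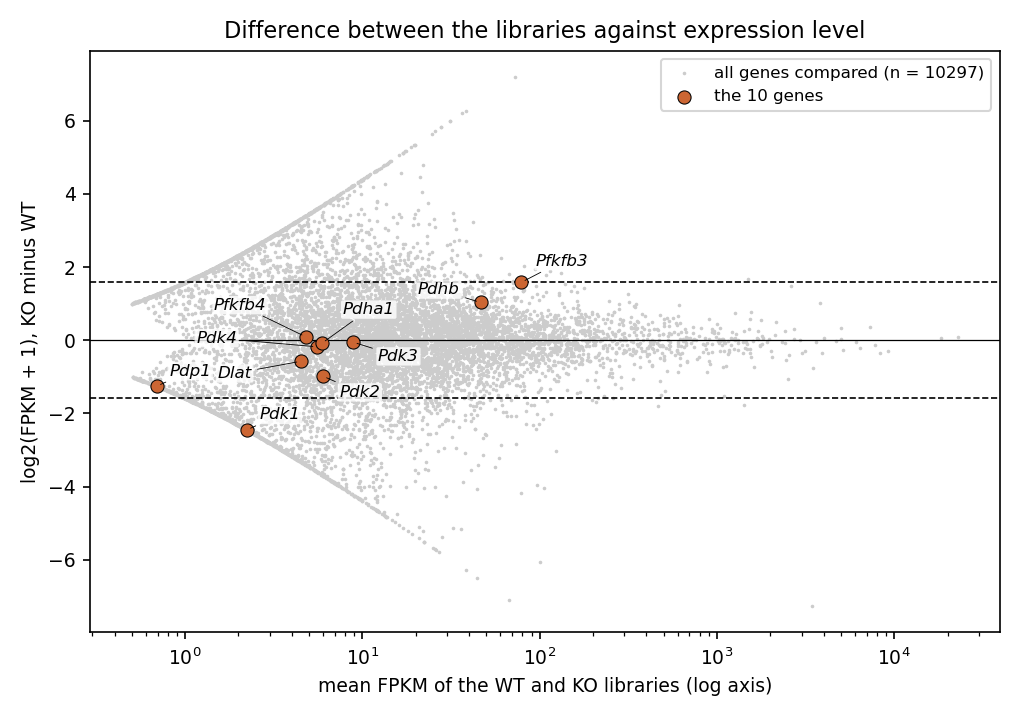
Difference of log2(FPKM + 1), KO minus WT, against the mean FPKM of both libraries (log axis) for the 10297 genes compared (grey) and the 10 members (orange), with dashed lines at 3-fold. The grey cloud narrows as the level rises, Pfkfb3 sits at the upper line where few genes do, and Pdk1 lies on the lower edge formed by genes listed at 0 in KO.

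The other genes of the pathway were then examined. The list held 30 genes, of which 22 passed the filter, 4 were higher and 2 were lower in KO past 3-fold, and their median difference was 0.24. That median was 0.05 over the genes at 1 FPKM or more in both libraries and turned to -0.06 over those with a mean of 5 FPKM or more, so its sign depends on the filter. The shares higher and lower in all genes, 13.6% and 13.7%, apply here too. Of the 4 higher genes 2 were in the PDH complex. Dld, which encodes the dihydrolipoamide dehydrogenase that PDH shares with other complexes, was at 4.36 FPKM (WT) against 15.3 FPKM (KO), a difference of 1.60. Pdhx, which encodes the protein that holds Dld in the complex, was listed at 0 for WT, with 4.14 FPKM for KO. At such levels differences past 3-fold in either direction were common, in 32.4% of genes with a mean of 5 to 10 FPKM, as for Dld, and in 49.0% of those with a mean of 2 to 5 FPKM, as for Pdhx.

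At the PFK-1 step, Pfkl, the liver-type subunit, was higher, at 3.55 FPKM (WT) against 14.8 FPKM (KO), a difference of 1.79. Pfkp, the platelet-type subunit and the highest in WT, was at 28.0 FPKM (WT) against 13.8 FPKM (KO). Pfkm, the muscle type, was at 0.478 and 3.20 FPKM. The 3 subunits summed to 32.1 FPKM (WT) against 31.8 FPKM (KO), and the share of Pfkp was 87.4% and 43.5%. PFK-1, which the product of Pfkfb3 activates, thus had nearly the same summed transcript level in both libraries, with Pfkp far ahead in WT and level with Pfkl in KO. Tigar, which breaks down the same activator, was listed at 0 for WT, with 4.45 FPKM for KO. Differences past 3-fold were common at these levels too. They were found in 32.4% of genes with a mean of 5 to 10 FPKM, as for Pfkl, and in 49.0% of those with a mean of 2 to 5 FPKM, as for Tigar.

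Lipt1, needed to attach lipoic acid to Dlat, was at 6.35 FPKM in WT and listed at 0 in KO, as were 9.08% of the 1289 genes at 6 to 10 FPKM in WT. Bckdk, the branched-chain relative of the PDH kinases, was at 27.1 FPKM (WT) against 6.12 FPKM (KO), a difference of -1.98, and was higher than any PDH kinase in WT. Of the 1861 genes with a mean of 10 to 20 FPKM, as for Bckdk, 20.6% were past 3-fold. Among 8 genes of pyruvate supply and its other fates 7 passed the filter and 0 were past 3-fold. Pkm, the pyruvate kinase that makes pyruvate and the highest of these, was at 197 FPKM (WT) against 204 FPKM (KO). Ldha, which turns pyruvate into lactate instead, was at 106 and 57.1 FPKM, a difference of -0.88. Of the mitochondrial pyruvate carrier, Mpc1 was at 19.3 and 15.1 FPKM, and Mpc2 differed by -0.97. Ldha and the carrier genes were picked for mention after their values were seen. Cs, citrate synthase, which takes up the acetyl-CoA that PDH makes, was at 29.1 and 46.1 FPKM.

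**Figure D5:**
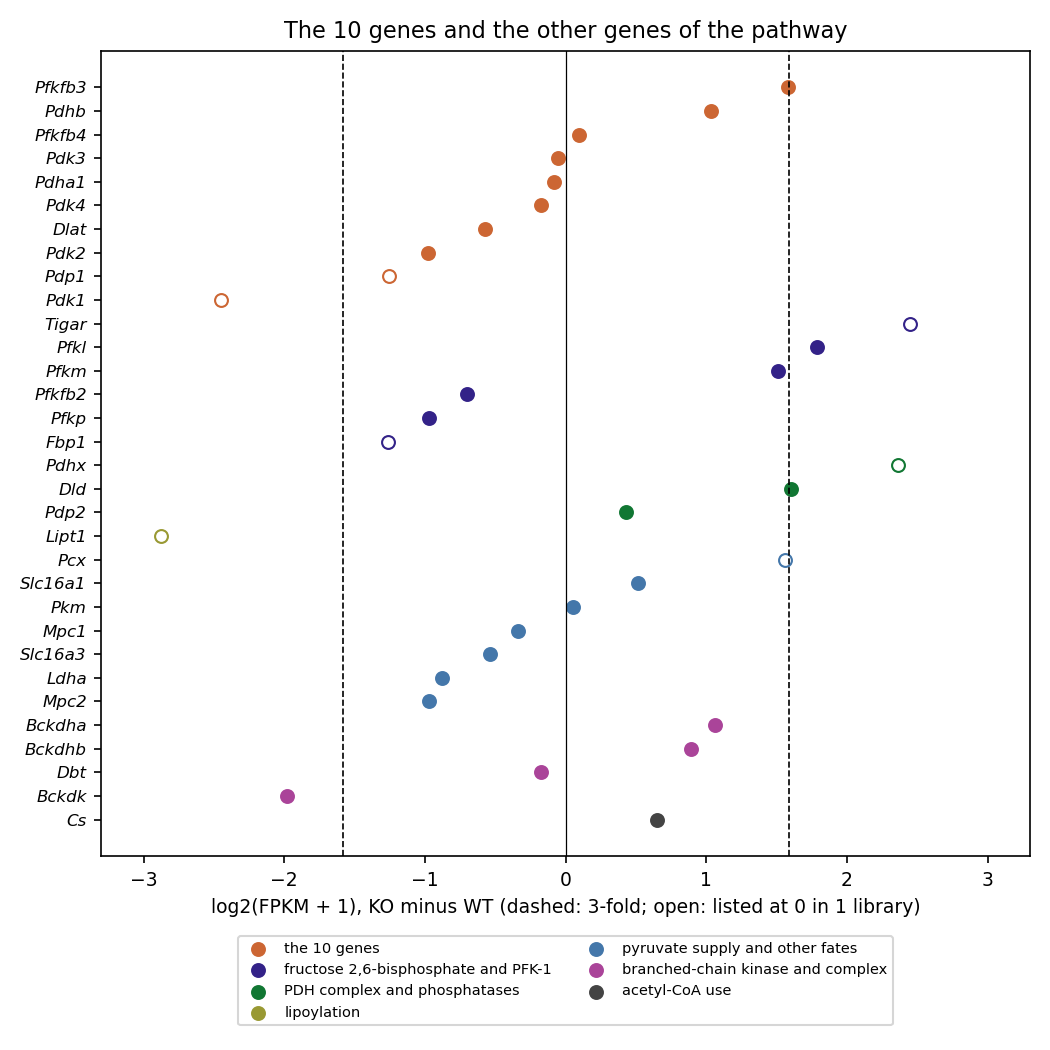
Difference of log2(FPKM + 1), KO minus WT, for the 10 members and the 22 other pathway genes that passed the filter, coloured by list, with dashed lines at 3-fold and open circles for genes listed at 0 in 1 library. Of the 6 other genes past the lines, Tigar, Pdhx and Lipt1 are open and Pfkl, Dld and Bckdk are filled.

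Among 12 HIF-1 target genes outside the pathway, 9 passed the filter, 1 was higher (Bnip3, a mitophagy receptor, at 1.51 and 8.93 FPKM) and 2 were lower past 3-fold, beside 13.6% and 13.7% of all genes. The lower ones were Hilpda, a lipid droplet protein, at 149 and 7.30 FPKM, and Egln1, an oxygen-sensing hydroxylase, at 18.1 and 0.865 FPKM. Of the 9 targets compared, 6 had a difference above 0 and 3 below, with a median of 0.15. Of 7 genes known as regulators of Pdk4, which itself differed by -0.18, 6 passed the filter, 1 was higher and 1 was lower past 3-fold, beside the same shares of all genes. Pparg was at 36.4 and 7.78 FPKM, a difference of -2.09, and Esrra was at 2.91 and 15.2 FPKM, a difference of 2.05.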

How the data were processed

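RNA sequencing of sorted ATM gave 1 WT and 1 KO library. The authors deposited a single table of FPKM per gene, and the submitters' processing notes name CASAVA 1.8.2, TopHat2 2.0.9, Cufflinks 2.2.1 and the build mm9; the annotation and filters were not given in the sources used here. FPKM is already divided by length and library size, so no count model was used. The column marked as mutant was taken as KO, the only library that is not WT.

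Of 20749 rows, 401 full repeats were dropped and the FPKM of 18 further rows with an identifier already present was summed. Symbols and transcript lengths came from GENCODE M21, and promoters from RefSeq, both on GRCm38, so no mm9 coordinates are printed. Of the 20330 identifiers 20035 had a symbol. Differences are log2(FPKM + 1), KO minus WT, for genes that reached 1 FPKM in WT or KO. Genes named outside the members were those of the fixed lists past 3-fold or highest in their list, and others of the lists were named after their values were seen, to complete a family or a step. The members and lists were chosen with earlier results of these data known. The marker genes Cd68 and Ly6g were not analysed here.

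Fragments were estimated from the smallest recurring FPKM x kb in genes with 1 annotated transcript, 0.171 in WT (18 genes) and 0.134 in KO (20 genes). They and their intervals cover counting error only. The counting of genes past the fold was tested on simulated data with planted differences and no noise. That checks the counting alone and cannot show how reliable a call is with 1 library per genotype. Alternatives were other pseudocounts, filters, scalings and thresholds. Python 3.11.15, pandas 2.3.3 and scipy 1.17.1 were used.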

Additional observations from a re-analysis of the deposited data

How the results depend on the processing

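No paired analysis was possible because WT and KO are 1 library apiece, so none could be left out either. With an allowance of 1.5-fold, since no replicate spread exists, the differences of the 8 members above 0 in both libraries stayed within the allowance and kept their sign under every setting that gave a value. Pfkfb3 ran from 1.58 to 1.63 and Pdhb from 1.03 to 1.08. Pdk1, listed at 0 in KO, went to -5.51 with a pseudocount of 0.1 and -8.80 with 0.01, and Pdp1 to -3.89 and -7.12, so no size can be read from them. Both gave no value under the stricter filters, where Pfkfb4 and Dlat also failed a mean of 5 FPKM or more.

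The number of members higher in KO past the fold became 1 with either smaller pseudocount and with both libraries scaled to the same sum, in each case Pfkfb3, and 2 at a threshold of 2-fold or 1.5-fold. The number lower became 2 with either smaller pseudocount and at 2-fold, 3 at 1.5-fold, and 0 with 1 FPKM required in both libraries or a mean of 5 FPKM or more. Over all genes, the numbers higher and lower rose too, from 1402 and 1413 to 1903 and 1849 with a pseudocount of 0.1. With 0.01 they were 1931 and 1877, and with the same sum 1444 and 1374. They were 429 and 447 of 7586 genes with 1 FPKM required in both libraries, and 598 and 646 at a mean of 5 FPKM or more. At 2-fold they were 2380 and 2314, and at 1.5-fold 3293 and 3110. For the other pathway genes they were 2 and 1 under both stricter filters, 7 higher at 2-fold, and 9 and 7 at 1.5-fold. Their median reversed to -0.06 at a mean of 5 FPKM or more, and was 0.00 with no filter and 0.05 with that level of 1 FPKM required in both. No member had a repeated identifier, so using the highest such row could not change the PDH kinase shares. The same holds for the ratio of the kinases to Pdha1 and that of Pfkfb3 to Pfkfb4. The other shares and ratios were not run under that setting.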
